A study of Homo sapiens with 12 samples.

Results

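The clustered histone genes are the gene copies, gathered in a few chromosomal clusters, that supply most of the core and linker histones of dividing cells. Members were all gene symbols of the deposited tables that begin HIST1 to HIST4 followed by a histone class, with pseudogene names left out, and no measured value entered that choice. The rule found 29 of 17096 genes, with 3 linker histone H1 genes, 7 H2A genes, 10 H2B genes, 2 H3 genes and 7 H4 genes. All 17096 were above 0 in all 12 libraries, so genes at 0 in any library are not listed. GENCODE 29 has 71 clustered histone genes with a protein-coding transcript. Counts over the 29 members below therefore describe the listed genes and not the whole family. GENCODE 29 types 1 of the H2B members, HIST2H2BC, as a transcribed pseudogene, which its symbol does not show. RNA sequencing was deposited for H7, a human embryonic stem cell line, during directed differentiation toward cardiomyocytes. The 6 groups were E2A-/- and wild type cells at day 3, labelled cardiac mesoderm, at day 7, labelled cardiomyocytes, and at day 15, labelled cardiomyocytes, with 2 libraries each. E2A is the product of TCF3, a transcription factor of the E protein family, and the labels name neither the edit, nor the clone, nor the origin of the replicates, so the p-values below measure only the spread between these libraries, which may be technical.

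A nucleosome wraps DNA around an octamer of H2A, H2B, H3 and H4, and H1 binds the linker DNA at its entry and exit. Replication-dependent histone genes are transcribed in S phase, when NPAT at the histone locus responds to cyclin E and CDK2. Their messages usually lack a poly(A) tail and end in a short stem-loop that is bound by SLBP, which governs their processing, translation and decay. Some clustered genes also give polyadenylated transcripts that run past the stem-loop, a form described in differentiated cells, while variant histones such as H3.3 come from ordinary polyadenylated messages made through the whole cell cycle. The design text calls the libraries mRNA profiles and the extract is labelled total RNA, and whether poly(A) RNA was selected is not given in the sources used here. How that step would affect each member was not tested.

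TCF3 itself had 146 and 148 FPKM (fragments scaled by gene length and sequencing depth) in the libraries labelled knockout at day 3, against 179 and 149 FPKM in wild type. It had 180 and 172 FPKM in labelled knockout at day 7, against 135 and 138 FPKM in wild type, and 170 and 108 FPKM at day 15, against 74.4 and 98.2 FPKM in wild type. No fall of the targeted message passed the test at any day, and at day 15 it was higher (log2 change 0.66 ± 0.19 SE, limma, two-sided, Benjamini-Hochberg adjusted p = 0.0234), a call lost without day 15 knockout replicate 1 (0.34) or wild type replicate 1 (0.46) and with the day 15 groups fitted alone (adjusted p = 0.0838). At day 7 it was also called higher after scaling to the nuclear sum (0.57, limma adjusted p = 0.0234) and with the day 7 groups fitted alone (0.36, adjusted p = 0.0172), but not in the fit reported. An edit can leave a message in place, the edited position is not given, and the groups are called by their labels throughout. The summed level of the 5 cardiomyocyte markers (TNNT2, MYH6, MYL7, ACTN2 and NKX2-5) was 4.11 to 5.55 FPKM in labelled knockout and 5.80 to 7.56 FPKM in wild type at day 3, 1004 to 1153 FPKM against 6050 to 6051 FPKM at day 7, and 2926 to 3626 FPKM against 8483 to 9360 FPKM at day 15. At that day 3 of the 5 were lower. MYH6, the alpha myosin heavy chain, was higher, with 959 and 786 FPKM in labelled knockout against 632 and 702 FPKM in wild type (0.38 ± 0.13 SE, limma adjusted p = 0.0392). That call was lost without knockout replicate 1 (0.24), wild type replicate 1 (0.31) or wild type replicate 2 (0.46). The 2 listed neural markers summed to 68.0 to 68.9 FPKM in labelled knockout at day 3, 70.7 to 81.6 FPKM at day 7 and 23.7 to 24.5 FPKM at day 15, against 2.11 to 5.76 FPKM over all wild type libraries. The deposited values hold no gene at 0 in any library, so a planned marker missing from them was not counted. Summed levels of 4 mesoderm markers were 157 to 179 FPKM in labelled knockout at day 3, against 603 to 609 FPKM in wild type. Sums of 2 endoderm markers at day 3 were 31.7 to 35.5 FPKM in labelled knockout, against 126 to 130.3 FPKM in wild type. Smooth muscle markers (3 listed) summed to 121 to 131 FPKM in labelled knockout at day 7, against 907 to 937 FPKM in wild type, and to 308 to 366 FPKM at day 15, against 1621 to 1765 FPKM. Pluripotency markers (3 listed) summed to 342 to 369 FPKM in labelled knockout at day 7, against 167 to 171 FPKM in wild type, and to 97.5 to 98.6 FPKM at day 15, against 45.8 to 63.1 FPKM. At day 7, 2 of these 3 were higher in labelled knockout, but not POU5F1, which was called by genotype at no day. POU5F1 had 130 and 114 FPKM in labelled knockout at day 7, against 114 and 111 FPKM in wild type. Endothelial markers (3 listed) summed to 48.7 to 55.6 FPKM in labelled knockout at day 7, against 83.0 to 90.2 FPKM in wild type. All 3 were lower there (19.9% of all genes). At day 15 they summed to 57.2 to 61.8 FPKM, against 68.0 to 71.6 FPKM, with 2 higher and 1 lower (18.9% and 16.2% of all genes). These makeups moved with genotype beside the histone comparisons below, and their part in the results was not tested. In such bulk libraries fewer cells of a type and less RNA per cell cannot be told apart.

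The RefSeq promoter of HIST2H2BE, the H2B gene with the largest called change between days, is shown because it carries the elements described for H2B promoters. The 250 bases before its RefSeq start lie at chr1:149886683-149886932 (GRCh38.p14, minus strand), between HIST2H2BE and its divergent neighbour HIST2H2AC, with the octamer ATTTGCAT (the site of the POU factor OCT1), the CCAAT box CCAAT and the TATA letters TATAAA in capitals on either strand.
HIST2H2BE: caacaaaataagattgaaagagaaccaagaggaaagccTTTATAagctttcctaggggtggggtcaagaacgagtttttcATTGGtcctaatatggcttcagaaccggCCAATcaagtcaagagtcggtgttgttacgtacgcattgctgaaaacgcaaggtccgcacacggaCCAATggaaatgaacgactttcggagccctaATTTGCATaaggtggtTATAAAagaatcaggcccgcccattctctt
Windows of 70 bases, from 90 to 21 bases before the start, are set beside it for HIST1H2BK at chr6:27146879-27146948 (minus strand) and HIST1H2BD at chr6:26158031-26158100 (plus strand), the first with the octamer and the second without it.
HIST1H2BK: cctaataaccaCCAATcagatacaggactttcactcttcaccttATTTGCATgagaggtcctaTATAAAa
HIST1H2BD: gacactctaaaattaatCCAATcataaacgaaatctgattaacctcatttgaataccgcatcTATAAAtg
Of 29 members, 27 had a RefSeq promoter of 250 bases before to 50 bases after the start. Searched on both strands, with partial overlaps between motifs kept, the octamer was in 7 of 9 H2B promoters, 4 of 7 H2A promoters and 0 of 6 H4 promoters, against 1.80% of all 27305 promoters. CCAAT was in 9 of 9 H2B, 7 of 7 H2A, 3 of 3 H1, 2 of 2 H3 and 1 of 6 H4 promoters, against 35.7% of all, and TATAAA in 16 of 27 members' promoters, against 11.95% of all. The E-box CANNTG, the core letters that E proteins bind, was in 14 of 27 members' promoters, against 68.9% of all promoters. In all 4 H2A promoters with the octamer, its site is the one also counted for the divergent H2B neighbour (HIST1H2BC, HIST1H2BG, HIST1H2BJ or HIST2H2BE). The H2A and H2B counts are therefore not separate. Windows of divergent neighbours overlap, so matches of the other motifs can also be counted for both genes. A match is a run of letters and no measurement of binding.

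The 3' ends are shown because the stem-loop separates the replication-dependent form of a message from longer forms. GENCODE 29 transcripts were searched on the sense strand for GG, any 3 bases, T, any base, T, any 2 bases, A, any 3 bases and CC, with all 6 stem pairs formed, G with T allowed, and the 16 bases of the match stand in capitals within 26 bases.
HIST2H2BE: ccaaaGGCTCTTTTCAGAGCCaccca
HIST1H2AC: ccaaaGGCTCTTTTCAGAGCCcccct
HIST3H2A: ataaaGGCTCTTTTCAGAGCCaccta
HIST1H2BD: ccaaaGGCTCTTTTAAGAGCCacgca
HIST1H4H: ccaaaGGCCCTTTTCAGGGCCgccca
HIST4H4: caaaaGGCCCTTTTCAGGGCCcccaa
The pattern was in 21 of 29 members, against 308 of 19669 genes with a protein-coding transcript (1.57%), and 11 members shared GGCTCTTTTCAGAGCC. Members were searched in transcripts of every type and all genes in protein-coding transcripts only. Of the 71 clustered histone genes with a protein-coding transcript in GENCODE 29, listed or not, 31 held the pattern in such a transcript. HIST2H2BC held the pattern only in transcripts of other types. No transcript model of HIST1H1B, HIST1H1C, HIST1H1E, HIST1H2BJ, HIST1H2BK, HIST1H3E, HIST1H4C or HIST2H2AC held the pattern, and the models of HIST1H1C (642 bases), HIST1H2BK (381 bases) and HIST2H2AC (390 bases) barely extend past the coding part. Annotated transcripts run 1729 bases past the stem-loop in HIST2H2BE and 1128 bases in HIST1H2AC, but 51 bases in HIST1H2AE and 35 bases in HIST2H2AA3. A transcript with the poly(A) signal AATAAA in its last 40 bases is annotated for 17 members, and a spliced transcript for 11.

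Most clustered histone messages were scarce in these libraries. The mean level over 12 libraries was 10 FPKM or more for 4 members (HIST1H4C, HIST1H2BK, HIST1H1C and HIST3H2A), from 1 to 10 FPKM for 20 members and below 1 FPKM for 5, with a median over members of 2.25 FPKM. HIST1H4C averaged 74.9 FPKM and HIST1H2BK, the next, 21.4 FPKM. All 29 members together held 0.0195% to 0.0430% of a library's summed FPKM. By contrast the genes of the replication-independent variants were abundant: H3F3A and H3F3B, both encoding H3.3, had 406 to 682 FPKM and 453 to 810 FPKM over the libraries, and H2AFZ, encoding H2A.Z, had 137 to 231 FPKM.

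**Figure D1:**
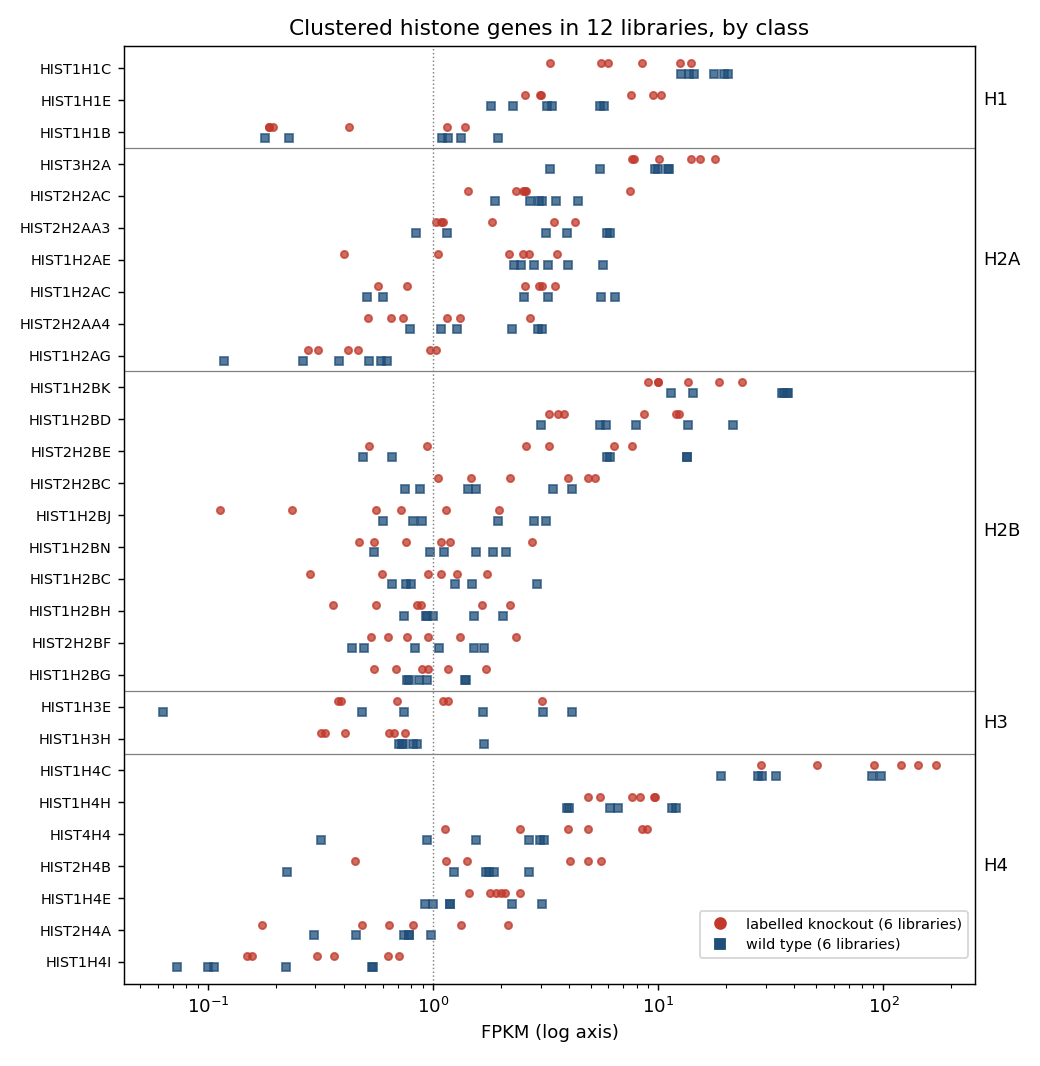
FPKM (log axis) of each of the 29 members, grouped by histone class and ordered by mean, in the 6 libraries labelled knockout (circles, upper) and the 6 wild type libraries (squares, lower), with a dotted line at 1 FPKM. HIST1H4C stands highest in every library but the wild type ones of day 15, where HIST1H2BK was higher.

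Replicates of these scarce genes were spread more widely than most. The pooled SD of log2(FPKM + 1) between replicates had a median of 0.34 over the 26 members tested, against 0.19 over all 16295 genes tested, and 0.37 over the 20 members with a mean from 1 to 10 FPKM, against 0.23 over 6976 genes of that level. Members with wide replicates included HIST1H2BJ, an H2B gene, with 0.113 and 1.14 FPKM in labelled knockout at day 3. Depth was estimated at 6800000 to 11600000 fragments a library, from the size of 1 fragment in low genes. At its full annotated length HIST1H4C then rests on about 69.6 to 702 fragments, HIST2H2BE on 11.99 to 247 and HIST2H2AA3 on 5.14 to 37.4, while HIST1H1B rests on 1.31 to 10.6.

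The class makeup of the histone messages differed between genotypes and days, through the H4 gene HIST1H4C and also the H2B genes. HIST1H4C held 66.4% and 66.5% of the members' summed FPKM in labelled knockout at day 3, against 50.4% and 45.5% in wild type. At day 7 it held 47.6% and 65.9% in labelled knockout, against 23.4% and 25.1% in wild type, and at day 15 it held 28.96% and 20.5%, against 11.6% and 15.4%. In both genotypes its share was lowest at day 15, and at each day both libraries labelled knockout lay above both wild type ones. The other 28 members together had 72.1 and 60.5 FPKM in labelled knockout at day 3, against 96.5 and 106 FPKM in wild type. They had 99.8 and 88.6 FPKM in labelled knockout at day 7, against 94.5 and 99.0 FPKM in wild type, and 124 and 111 FPKM at day 15, against 144 and 152 FPKM in wild type. Without HIST1H4C the sum was thus below wild type in labelled knockout at days 3 and 15, and overlapped with it at day 7. The H2B genes summed to 31.2 and 20.0 FPKM in labelled knockout at day 3, against 45.8 and 51.8 FPKM in wild type. At day 7 they had 31.7 and 27.1 FPKM, against 32.8 and 37.7 FPKM in wild type. At day 15 they had 53.3 and 41.2 FPKM, against 81.2 and 77.7 FPKM in wild type. No test was run on sums over members.

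**Figure D2:**
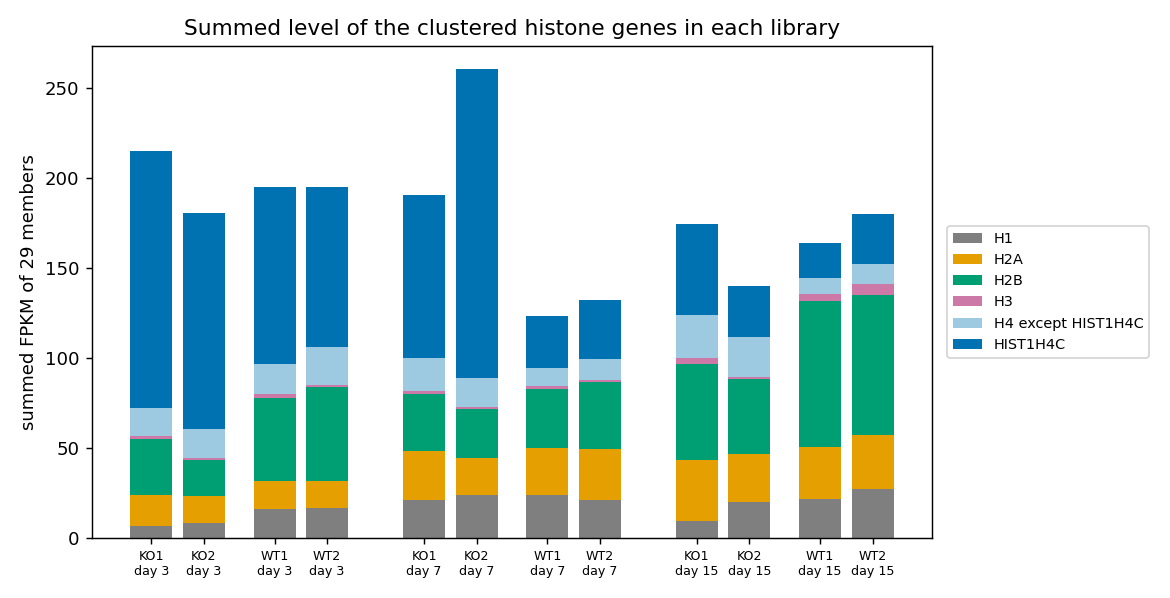
Summed FPKM of the 29 members in each of the 12 libraries, stacked by class with HIST1H4C apart, labelled knockout (KO) left of wild type (WT) at each day. The HIST1H4C portion was 90.6 and 172 FPKM in the 2 libraries labelled knockout at day 7, against 28.9 and 33.2 FPKM in wild type, and the H2B portion was 77.7 to 81.2 FPKM in wild type at day 15.

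Genotype was compared within each day for the 26 members that reached 1 FPKM in 2 libraries or more, and a member is said to have risen, fallen or changed where limma's two-sided adjusted p over all 16295 genes was under 0.05. HIST1H2AG, HIST1H3H and HIST1H4I did not pass that filter, and the highest value among them was 1.69 FPKM, of HIST1H3H. At day 3, 3 of 26 members changed (11.5%), against 23.6% of all genes tested, with 1 higher and 2 lower in labelled knockout (9.51% and 14.1% of all genes). At day 7, 5 changed (19.2%), against 42.0% of all genes, with 2 higher and 3 lower (22.1% and 19.9% of all genes). At day 15, 6 changed (23.1%), against 35.1% of all genes, with 2 higher and 4 lower (18.9% and 16.2% of all genes). The members' share called was therefore below that of all genes at each day. Median log2 changes over the members were -0.18 at day 3, 0.11 at day 7 and -0.22 at day 15, against -0.01, 0.06 and 0.03 over all genes. With libraries scaled to the same sum over nuclear genes, which moved the median of all genes to 0.22 at day 7, the day 7 split was 4 higher and 3 lower. The 2 added calls there, named after their values were seen, were HIST1H2BG (0.56, limma adjusted p = 0.0224) and HIST1H4E (0.59, adjusted p = 0.0314).

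**Figure D3:**
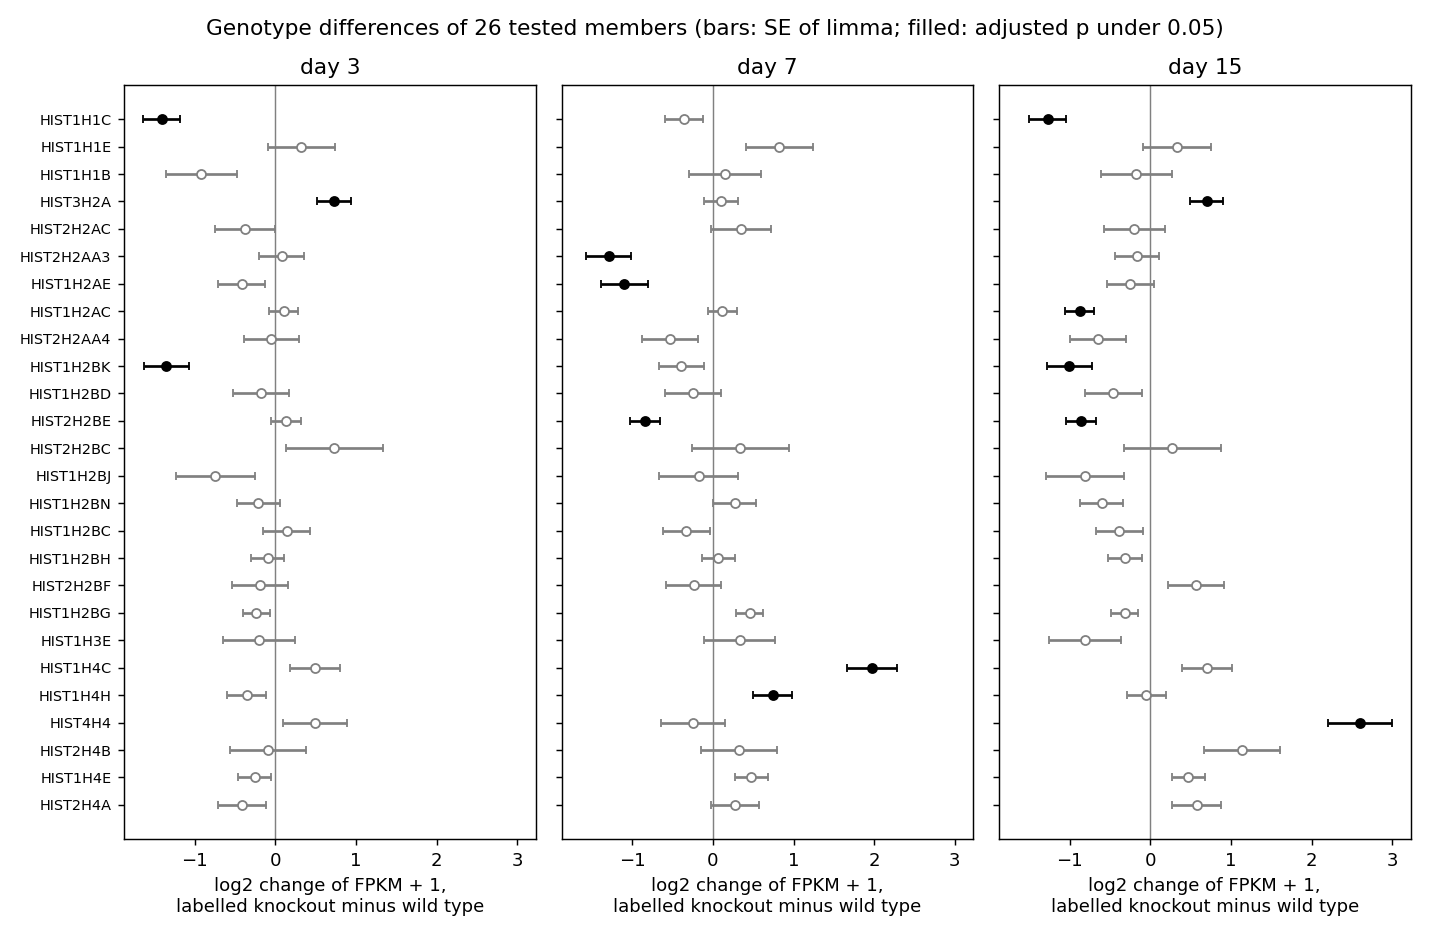
Log2 change of FPKM + 1, labelled knockout minus wild type, for the 26 members tested at days 3, 7 and 15, with bars for the SE of limma and filled points at an adjusted p under 0.05. Filled points lie to the right for HIST1H4C and HIST1H4H at day 7 and HIST4H4 at day 15 among H4 genes, and to the left for HIST1H1C, HIST1H2BK and HIST2H2BE wherever these are filled.

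H4 genes, whose product pairs with H3 in the core of the octamer, gave 3 genotype calls, all upward, HIST1H4C and HIST1H4H at day 7 and HIST4H4 at day 15. Of 6 tested, 0 were higher at day 3, 2 at day 7 and 1 at day 15 (9.51%, 22.1% and 18.9% of all genes). The lowest log2 changes over these 6 were -0.41, -0.25 and -0.05, none of them called. HIST1H4C (ENSG00000197061, chr6:26103876-26104310, plus strand) had 143 and 120.0 FPKM in labelled knockout at day 3, against 98.0 and 88.5 FPKM in wild type. It had 90.6 and 172 FPKM in labelled knockout at day 7, against 28.9 and 33.2 FPKM in wild type. It had 50.5 and 28.7 FPKM in labelled knockout at day 15, against 19.0 and 27.7 FPKM in wild type. Both libraries labelled knockout lay above both wild type libraries at every day, and the difference passed the test at day 7. There the mean was 131 ± 57.2 FPKM in labelled knockout and 31.1 ± 3.08 FPKM in wild type (SD, n = 2 each; log2 change 1.97 ± 0.31 SE, limma adjusted p = 0.000663). The day 3 and day 15 changes were 0.49 and 0.70 and missed the threshold, which does not show that the genotypes were alike there. The day 3 change passed with the day 3 groups fitted alone (limma adjusted p = 0.0359), and the day 15 change without knockout replicate 2 (1.10, adjusted p = 0.0292).

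HIST1H4H (ENSG00000158406), an H4 gene of the same chromosome 6 cluster with spliced forms annotated, had 9.68 and 8.30 FPKM in labelled knockout at day 3, against 11.5 and 12.03 FPKM in wild type. At day 7 it had 5.52 and 9.57 FPKM in labelled knockout, against 3.91 and 4.02 FPKM in wild type, and at day 15 it had 7.67 and 4.85 FPKM, against 6.11 and 6.64 FPKM. It was higher in labelled knockout at day 7 (log2 change 0.74 ± 0.24 SE, limma adjusted p = 0.0308), with replicates far apart. That call was lost without knockout replicate 2 (0.39), wild type replicate 1 (0.73) or wild type replicate 2 (0.76), and with the day 7 groups fitted alone (adjusted p = 0.0637).

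HIST4H4 (ENSG00000197837, chr12:14767999-14771131, minus strand), the single H4 gene of a site on chromosome 12, gave the largest genotype change among the 26 members. It had 8.90 and 8.44 FPKM in labelled knockout at day 15, against 0.317 and 0.936 FPKM in wild type. Day 3 gave 2.44 and 4.86 FPKM in labelled knockout, against 1.54 and 2.99 FPKM in wild type, and day 7 gave 3.98 and 1.13 FPKM, against 3.11 and 2.67 FPKM. The groups thus overlapped at the earlier days and stood far apart at day 15, with 8.67 ± 0.328 FPKM in labelled knockout and 0.626 ± 0.438 FPKM in wild type (SD, n = 2 each; log2 change 2.60 ± 0.40 SE, limma adjusted p = 0.000715). The other 3 tested H4 genes (HIST1H4E, HIST2H4A and HIST2H4B, whose symbols were taken up after their values were seen) were called at no day in the fit reported. Other settings called HIST1H4E at day 7 (nuclear sum, above) and, at day 15, HIST1H4E without knockout replicate 2 (0.72), HIST2H4A without knockout replicate 1 (0.97) and HIST2H4B with the day 15 groups fitted alone (1.14), all higher in labelled knockout. HIST2H4A and HIST2H4B share a run of at least 100 bases, so reads could be split between them.

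H2A genes, which form a dimer with H2B, went in both directions. HIST3H2A (ENSG00000181218, chr1:228456979-228457873, minus strand), the H2A gene of the small HIST3 cluster, had 7.61 and 7.82 FPKM in labelled knockout at day 3, against 5.49 and 3.30 FPKM in wild type. It had 14.0 and 10.1 FPKM in labelled knockout at day 7, against 11.03 and 11.1 FPKM in wild type, and 17.8 and 15.3 FPKM at day 15, against 9.62 and 9.92 FPKM. It was higher in labelled knockout at day 3 (log2 change 0.72 ± 0.21 SE, limma adjusted p = 0.0301) and at day 15 (0.70 ± 0.21 SE, adjusted p = 0.0252), and overlapped at day 7. The day 3 call was lost without knockout replicate 1 (0.74), knockout replicate 2 (0.71) or wild type replicate 2 (0.43), and with the day 3 groups fitted alone (adjusted p = 0.0791). The day 15 call was lost without knockout replicate 1 (0.59), wild type replicate 1 (0.68) or wild type replicate 2 (0.72).

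HIST1H2AC (ENSG00000180573, chr6:26124145-26139116, plus strand), an H2A gene with long spliced transcripts, had 3.06 and 2.56 FPKM in labelled knockout at day 15, against 5.54 and 6.42 FPKM in wild type. It had 0.768 and 0.568 FPKM in labelled knockout at day 3, against 0.508 and 0.596 FPKM in wild type, and 2.95 and 3.49 FPKM at day 7, against 2.54 and 3.25 FPKM. The genotypes overlapped at days 3 and 7, and labelled knockout was lower at day 15 (log2 change -0.87 ± 0.18 SE, limma adjusted p = 0.00406). HIST2H2AA3 (ENSG00000203812), a chromosome 1 H2A gene that shares a run of at least 100 bases with HIST2H2AA4 and HIST2H2AC, had 1.03 and 1.82 FPKM in labelled knockout at day 7, against 3.95 and 5.92 FPKM in wild type. It was lower in labelled knockout there (-1.29 ± 0.28 SE, limma adjusted p = 0.00402), and overlapped at day 3, with 1.10 and 1.08 FPKM against 0.835 and 1.15 FPKM, and at day 15, with 4.27 and 3.45 FPKM against 3.17 and 6.07 FPKM. HIST1H2AE, whose annotated transcript ends 51 bases past the stem-loop, had 0.403 and 1.05 FPKM in labelled knockout at day 7, against 2.45 and 2.82 FPKM in wild type. It fell there (-1.10 ± 0.29 SE, limma adjusted p = 0.0114), a call lost without knockout replicate 1 (-0.83) or wild type replicate 2 (-1.03). HIST2H2AC ranged from 1.43 to 7.47 FPKM over the libraries and was called in no comparison of the fit reported. Without day 7 knockout replicate 2 it was called higher in labelled knockout at day 7 (0.99).

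H2B genes gave 4 genotype calls, all downward, of HIST1H2BK and HIST2H2BE. Of 10 tested, 1 was lower at day 3, 1 at day 7 and 2 at day 15 (14.1%, 19.9% and 16.2% of all genes). The highest log2 changes over these 10 were 0.73, 0.46 and 0.57, none of them called. HIST1H2BG missed the threshold at day 7 in the fit reported and was called higher there after scaling to the nuclear sum (0.56), with no filter (0.46, limma adjusted p = 0.0415), with no variance trend (adjusted p = 0.0252) and without knockout replicate 1 (0.62). HIST1H2BK (ENSG00000197903, chr6:27146418-27146798, minus strand), the most abundant H2B gene here, had 18.5 and 9.93 FPKM in labelled knockout at day 3, against 37.3 and 35.5 FPKM in wild type. At day 7 it had 8.98 and 9.98 FPKM in labelled knockout, against 11.4 and 14.3 FPKM in wild type, and at day 15 it had 23.5 and 13.5 FPKM, against 36.1 and 37.5 FPKM. Both libraries labelled knockout were below both wild type libraries at each day. The change passed the test at day 3 (-1.36 ± 0.28 SE, limma adjusted p = 0.00623) and at day 15 (-1.004 ± 0.28 SE, adjusted p = 0.0179). The day 15 call was lost without knockout replicate 2 (-0.63), wild type replicate 1 (-1.03) or wild type replicate 2 (-0.98). HIST1H2BK shares a run of at least 100 bases with H2BFS, so its reads may be divided.

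HIST2H2BE (ENSG00000184678, chr1:149884459-149886652, minus strand), whose promoter and stem-loop are printed above, was the H2B gene that changed with genotype at both later days. It had 0.517 and 0.942 FPKM in labelled knockout at day 3, against 0.487 and 0.655 FPKM in wild type. It had 2.58 and 3.28 FPKM in labelled knockout at day 7, against 6.08 and 5.91 FPKM in wild type, and 7.62 and 6.35 FPKM at day 15, against 13.4 and 13.4 FPKM. The genotypes overlapped at day 3, and labelled knockout then lay below wild type by nearly the same log2 change, -0.84 ± 0.19 SE at day 7 (limma adjusted p = 0.00478) and -0.85 ± 0.19 SE at day 15 (adjusted p = 0.00535). Since HIST2H2BF and 3 other annotated genes share a run of at least 100 bases with it, part of its reads may be placed elsewhere. HIST1H2BD, an H2B gene with a long spliced form and an overlapping gene on each strand, had 12.3 and 11.9 FPKM in labelled knockout at day 15, against 21.4 and 13.5 FPKM in wild type, and was called by genotype at no day.

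Of the 3 linker histone genes, HIST1H1C was called by genotype in the fit reported. HIST1H1C (ENSG00000187837, chr6:26055787-26056428, minus strand), which encodes H1.2, had 3.31 and 5.54 FPKM in labelled knockout at day 3, against 12.5 and 13.7 FPKM in wild type. It had 12.5 and 14.0 FPKM in labelled knockout at day 7, against 20.4 and 14.4 FPKM in wild type, and 5.998 and 8.44 FPKM at day 15, against 17.7 and 19.6 FPKM. It fell at day 3 (-1.41 ± 0.23 SE, limma adjusted p = 0.00198) and at day 15 (-1.27 ± 0.23 SE, adjusted p = 0.00212), and day 7 did not pass. HIST1H1E, which encodes H1.4, had 7.56 and 9.45 FPKM in labelled knockout at day 7, against 3.21 and 5.77 FPKM in wild type, and 2.97 and 10.3 FPKM at day 15, against 3.37 and 5.49 FPKM, and was called by genotype at no day, though higher in labelled knockout at day 15 without knockout replicate 1 (1.09, limma adjusted p = 0.0337). HIST1H1B, which encodes H1.5, ranged from 0.180 to 1.95 FPKM, had 0.229 and 1.95 FPKM in its wild type replicates at day 15, and gave no call in the fit reported. With the day 3 groups fitted alone it was lower in labelled knockout at day 3 (-0.92, limma adjusted p = 0.0151). H1F0, the replication-independent linker histone H1.0 of the variant list, went another way: it had 239 and 226 FPKM in labelled knockout at day 3, against 153 and 149 FPKM in wild type (0.62 ± 0.09 SE, limma adjusted p = 0.000986).

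Both H3 genes listed were near the floor of these libraries. HIST1H3E had 1.16 and 0.379 FPKM in labelled knockout at day 3, against 1.66 and 0.484 FPKM in wild type. It had 1.11 and 0.389 FPKM in labelled knockout at day 7, against 0.743 and 0.0630 FPKM in wild type, and 3.03 and 0.691 FPKM at day 15, against 3.07 and 4.12 FPKM. HIST1H3H ranged from 0.317 to 1.69 FPKM. Neither gave a genotype call in the fit reported, and without day 15 knockout replicate 1 HIST1H3E was lower in labelled knockout at day 15 (-1.43).

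**Figure D4:**
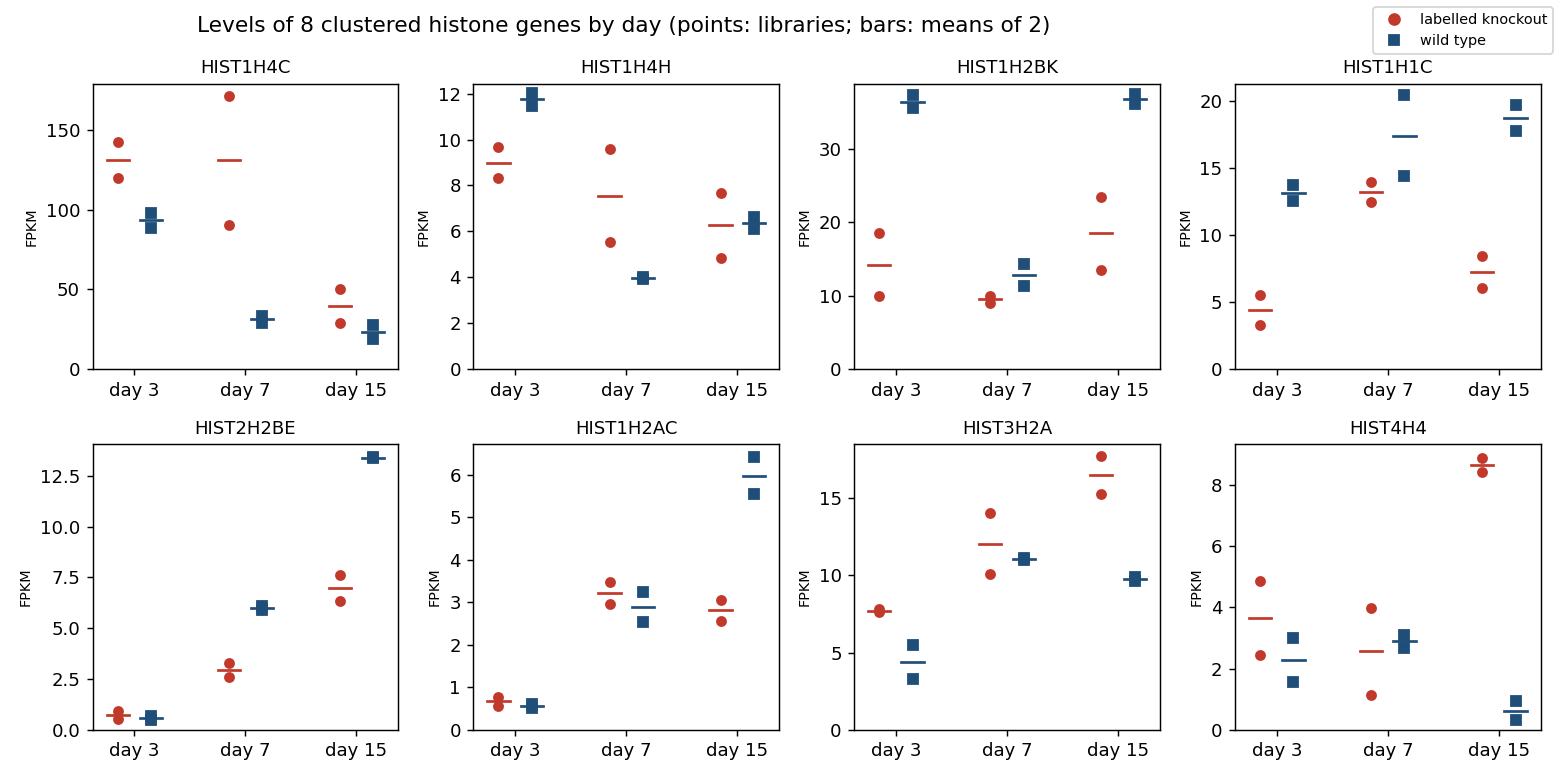
FPKM of HIST1H4C, HIST1H4H, HIST1H2BK, HIST1H1C, HIST2H2BE, HIST1H2AC, HIST3H2A and HIST4H4 at days 3, 7 and 15, with 1 point a library and a bar at the mean of 2, labelled knockout left of wild type. HIST2H2BE climbed through the days in both genotypes, HIST1H2BK had its lowest wild type values, 11.4 and 14.3 FPKM, at day 7, and HIST4H4 separated at day 15.

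Over time the clustered genes did not move as 1 block. From day 3 to day 7, 8 of 26 members changed in labelled knockout (30.8%), against 28.6% of all genes, with 7 higher and 1 lower at day 7 (17.3% and 11.4% of all genes). Over the same step 9 changed in wild type (34.6%), against 43.7% of all genes, with 5 higher and 4 lower (21.1% and 22.6% of all genes). From day 7 to day 15, 8 members changed in labelled knockout (30.8%), against 28.4% of all genes, with 5 higher and 3 lower at day 15 (13.3% and 15.1% of all genes). In wild type 6 changed (23.1%), against 52.3% of all genes, with 5 higher and 1 lower (25.5% and 26.8% of all genes). These comparisons share groups with each other and with the genotype comparisons.

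HIST2H2BE climbed at each step in both genotypes. In labelled knockout it averaged 2.93 ± 0.496 FPKM at day 7 and 0.730 ± 0.301 FPKM at day 3 (SD, n = 2 each; log2 change 1.19 ± 0.19 SE, limma adjusted p = 0.00091). It rose by 1.02 ± 0.19 SE to day 15 (adjusted p = 0.00259). In wild type it averaged 5.997 ± 0.121 FPKM at day 7 and 0.571 ± 0.119 FPKM at day 3 (SD, n = 2 each; 2.16 ± 0.19 SE, limma adjusted p = 7.23e-06). There it rose by 1.04 ± 0.19 SE to day 15 (adjusted p = 0.000979).

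HIST1H2AC rose from day 3 to day 7 in labelled knockout (1.34 ± 0.18 SE, limma adjusted p = 0.000349) and in wild type (1.32 ± 0.18 SE, adjusted p = 0.000192). Its labelled knockout values were then 3.06 and 2.56 FPKM at day 15 against 2.95 and 3.49 FPKM at day 7, with no call, and in wild type it rose further (0.85 ± 0.18 SE, limma adjusted p = 0.00277). HIST3H2A rose from day 3 to day 7 in wild type (1.19 ± 0.21 SE, limma adjusted p = 0.00103), and so did HIST2H2AA3 (1.56 ± 0.28 SE, adjusted p = 0.00113). HIST2H2AA3 rose in labelled knockout from day 7 to day 15 (1.02 ± 0.28 SE, limma adjusted p = 0.0203), a call lost without day 7 replicate 1 (0.78) or day 15 replicate 1 (0.90).

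HIST2H2BE and HIST2H2AC are transcribed away from each other, with 322 bases between their annotated first bases, in the interval that holds the printed promoter. At day 3 the ratio of their FPKM values was 0.203 and 0.405 in labelled knockout, against 0.110 and 0.244 in wild type. Day 7 gave ratios of 0.346 and 1.31 in labelled knockout, against 1.72 and 1.95 in wild type. By day 15 they were 2.96 and 4.44 in labelled knockout, against 4.52 and 7.14 in wild type. HIST2H2BE thus went from the lower to the higher gene of the pair over the course, per length of the authors' gene models, while HIST2H2AC, at 1.43 to 7.47 FPKM, was called at no step. In labelled knockout its fall from day 7 to day 15 (-0.89) passed with a replicate block (limma adjusted p = 0.0321), and without day 7 replicate 2 it was called at both steps (1.301 and -1.52). There are 5 such divergent pairs of an H2B and an H2A gene among the members.

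HIST1H4C fell once in each genotype. In labelled knockout HIST1H4C fell between days 7 and 15, with 39.6 ± 15.4 FPKM at day 15 and 131 ± 57.2 FPKM at day 7 (SD, n = 2 each; -1.68 ± 0.31 SE, limma adjusted p = 0.0028). In wild type it fell between days 3 and 7, with 31.1 ± 3.08 FPKM at day 7 and 93.3 ± 6.68 FPKM at day 3 (-1.56 ± 0.31 SE, limma adjusted p = 0.00223). HIST1H4H also fell there in wild type, with 3.96 ± 0.0738 FPKM at day 7 and 11.8 ± 0.390 FPKM at day 3 (-1.36 ± 0.24 SE, limma adjusted p = 0.00114). At day 15 it had 6.11 and 6.64 FPKM in wild type against 3.91 and 4.02 FPKM at day 7 (0.57, limma adjusted p = 0.0702). That difference was called after scaling to the nuclear sum (0.73, limma adjusted p = 0.0276) and with these groups fitted alone (adjusted p = 0.0263). In labelled knockout HIST1H4H was called at neither step. From day 7 to day 15 HIST4H4 rose in labelled knockout (1.57 ± 0.40 SE, limma adjusted p = 0.0145) and fell in wild type (-1.28 ± 0.40 SE, adjusted p = 0.0195). The labelled knockout call was lost without day 7 replicate 2 (0.96) or day 15 replicate 2 (1.60), and the wild type call without day 7 replicate 1 (-1.20), day 7 replicate 2 (-1.36) or day 15 replicate 1 (-1.004).

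HIST1H2BK rose in labelled knockout from day 7 to day 15 (0.85 ± 0.28 SE, limma adjusted p = 0.0437). That call was lost without day 7 replicate 1 (0.78), day 7 replicate 2 (0.92) or day 15 replicate 1 (0.47), with no variance trend (adjusted p = 0.0542) and with these groups fitted alone (adjusted p = 0.0875). In wild type it dipped, falling from day 3 to day 7 (-1.44 ± 0.28 SE, limma adjusted p = 0.00187) and rising to day 15 (1.46 ± 0.28 SE, adjusted p = 0.00148). HIST1H1C peaked at day 7 in labelled knockout, rising from day 3 (1.42 ± 0.23 SE, limma adjusted p = 0.00128) and falling to day 15 (-0.80 ± 0.23 SE, adjusted p = 0.0266). The second call was lost without day 7 replicate 1 (-0.88), day 7 replicate 2 (-0.73) or day 15 replicate 1 (-0.59) and with these groups fitted alone (adjusted p = 0.0646). In wild type HIST1H1C was called at neither step. HIST1H2BD rose in wild type from day 7 to day 15 (1.20 ± 0.35 SE, limma adjusted p = 0.0151; lost without day 7 replicate 2, at 1.00, or day 15 replicate 1, at 0.88), and so did HIST1H3E (1.75 ± 0.44 SE, adjusted p = 0.00746; lost without day 7 replicate 2, at 1.39, or day 15 replicate 2, at 1.58).

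Among the scarcer members, HIST1H2AE had its lowest values in labelled knockout at day 7, below day 3 (-1.24 ± 0.29 SE, limma adjusted p = 0.00924; lost without day 3 replicate 1, at -1.05, or day 7 replicate 1, at -0.96). It rose again to day 15 (1.01 ± 0.29 SE, limma adjusted p = 0.0253), a call lost without day 7 replicate 1 (0.73), day 15 replicate 1 (0.90) or day 15 replicate 2 (1.11) and with these groups fitted alone (adjusted p = 0.0502). HIST1H2BH, an H2B gene at 0.358 to 2.20 FPKM, stood highest at day 7 in both genotypes. In labelled knockout it rose from day 3 (0.77 ± 0.21 SE, limma adjusted p = 0.0195; lost without day 3 replicate 1, at 0.63, or day 7 replicate 2, at 0.63) and fell to day 15 (-0.87 ± 0.21 SE, adjusted p = 0.011; lost without day 7 replicate 2, at -0.74, or day 15 replicate 1, at -0.65, and with these groups fitted alone, adjusted p = 0.0678). Its rise in wild type from day 3 to day 7 (0.60 ± 0.21 SE, limma adjusted p = 0.0391) was lost without any of the 4 libraries, with values of 0.46 to 0.73, and at a pseudocount of 0.1 (adjusted p = 0.072). From day 3 to day 7 labelled knockout also had rises of HIST1H1E (1.33 ± 0.42 SE, limma adjusted p = 0.0365), HIST1H2BN (0.90 ± 0.27 SE, adjusted p = 0.0291) and HIST1H2BG (0.59 ± 0.17 SE, adjusted p = 0.0241). Wild type had a fall of HIST1H4E (-0.83 ± 0.20 SE, limma adjusted p = 0.00768). Each of these 4 calls, described after their values were seen, was lost without 1 or another library, and those of HIST1H2BN and HIST1H2BG also with these groups fitted alone (adjusted p = 0.0861 and 0.0893). Over the 9 comparisons 17 members were called at least once and 9 of those tested were called in none. The share of all genes called at least once was not counted, so these counts were not set against it.

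Grouped by annotated 3' end, 13 members have a transcript that runs at least 500 bases past the stem-loop, 8 have stem-loop transcripts that all end within 500 bases, and 8 have no stem-loop in their models. Models of some of the last 8, among them HIST1H1C and HIST1H2BK, barely extend past the coding part. That group therefore describes the annotation, and not a known type of 3' end. From day 3 to day 7 in labelled knockout, 4 of 11 tested members of the long group rose and 0 fell (17.3% and 11.4% of all genes), with a median log2 change of 0.56. In wild type, 3 rose and 2 fell over the same step (21.1% and 22.6% of all genes), with a median of 0.28. Members with no stem-loop in their models had a median of -0.50 over that step in wild type, with 0 higher and 2 lower of 8 tested (HIST1H4C and HIST1H2BK), and the short group a median of 0.49, with 2 higher and 0 lower of 7 tested. The short group was set by stem-loop transcripts alone. It includes HIST1H2BD and HIST1H2BN, which also have spliced models without the stem-loop, of 789 and 4137 bases. In wild type the long group held both HIST2H2BE, which rose, and HIST1H4H, which fell, and no test compared the groups with each other or with the family.

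The genotype difference itself was compared between days in the same model. From day 3 to day 7 it changed for 5 of 26 members (19.2%), against 20.2% of all genes, upward for HIST1H4C, HIST1H4H and HIST1H1C and downward for HIST2H2BE and HIST2H2AA3 (11.3% and 8.90% of all genes). All 5 of these calls were lost without 1 or another library. From day 7 to day 15 it changed for 4 members (15.4%), against 31.7% of all genes, upward for HIST4H4 and downward for HIST1H2AC, HIST1H2BG and HIST1H4C (16.6% and 15.2% of all genes). The split was 1 higher and 2 lower for the first step and 2 higher and 2 lower for the second after median-ratio scaling. HIST4H4 had the largest value, 2.85 ± 0.56 SE (limma adjusted p = 0.00384), and kept its call without any 1 library.

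Genes that make or use histone messages were read beside the members. SLBP, which binds the stem-loop, had 45.8 and 37.4 FPKM in labelled knockout at day 3, against 49.4 and 47.7 FPKM in wild type, 50.1 and 39.8 FPKM at day 7, against 65.9 and 59.3 FPKM, and 46.2 and 42.9 FPKM at day 15, against 48.6 and 34.1 FPKM. In the fit reported it was called by genotype at no day, with a day 7 change of -0.48 ± 0.18 SE (limma adjusted p = 0.0506). That change passed after median-ratio scaling (-0.55, limma adjusted p = 0.0237), among genes of at least 5 FPKM (adjusted p = 0.0466), with a replicate block (adjusted p = 0.0145) and with the day 7 groups fitted alone (adjusted p = 0.0378). NPAT, the transcriptional coactivator of histone genes, had 2.87 and 2.24 FPKM in labelled knockout at day 7, against 4.06 and 4.39 FPKM in wild type, and was called by genotype at no day. The lists that follow stand beside all genes, of which labelled knockout had 9.51% higher and 14.1% lower at day 3. For day 7 these shares were 22.1% and 19.9%. Day 15 had 18.9% higher and 16.2% lower. Of 13 genes of histone message processing and transcription, 0 rose and 1 fell in labelled knockout at day 3, 5 rose and 2 fell at day 7, and 4 rose and 2 fell at day 15. Of 12 histone chaperones, 3 rose and 2 fell at day 3, 4 rose and 0 fell at day 7, and 5 rose and 1 fell at day 15.

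Cell cycle genes moved with the day 7 comparison. PCNA, the sliding clamp of DNA replication, had 40.8 and 43.9 FPKM in labelled knockout at day 7, against 23.5 and 19.3 FPKM in wild type (0.96 ± 0.13 SE, limma adjusted p = 0.000236). MKI67, a marker of cycling cells, had 38.8 and 35.3 FPKM, against 20.2 and 20.1 FPKM (0.84 ± 0.16 SE, limma adjusted p = 0.00219). Of 17 S phase genes, 1 rose and 4 fell in labelled knockout at day 3, 10 rose and 1 fell at day 7 (22.1% and 19.9% of all genes), and 6 rose and 0 fell at day 15 (18.9% and 16.2%). Their summed level was 950.4 and 937 FPKM in labelled knockout at day 7, against 627 and 584 FPKM in wild type. At day 3, where the summed level was 944 and 801 FPKM in labelled knockout and 967 and 838 FPKM in wild type, HIST1H4C gave no call. At day 15 the summed level was 676 and 538 FPKM in labelled knockout, against 394 and 436 FPKM in wild type, and HIST1H4C gave no call there either. Of 8 G2 and mitosis genes, 3 rose at day 3 (9.51% of all genes), 6 rose at day 7 (22.1%), and 3 rose and 1 fell at day 15 (18.9% and 16.2%). Whether the share of cells in S phase took part in the HIST1H4C difference was not tested. In wild type PCNA fell from day 3 to day 7 (-1.45 ± 0.13 SE, limma adjusted p = 7.93e-06) as HIST1H4C did, while MKI67 at 20.2 and 20.1 FPKM at day 7, against 18.0 and 19.2 FPKM at day 3, gave no call. From day 7 to day 15 PCNA rose in wild type (0.68 ± 0.13 SE, limma adjusted p = 0.00125), where HIST1H4C gave no call. In labelled knockout PCNA was called at neither step, while HIST1H4C fell from day 7 to day 15. MKI67 fell over that step in labelled knockout (-1.39 ± 0.16 SE, limma adjusted p = 0.000186) and in wild type (-1.02 ± 0.16 SE, adjusted p = 0.00048). PCNA is 1 of the 17 S phase genes. In wild type 2 of them rose and 8 fell from day 3 to day 7 (21.1% and 22.6% of all genes). From day 7 to day 15 there 3 rose and 7 fell (25.5% and 26.8%). In labelled knockout 3 rose and 0 fell over the first step (17.3% and 11.4% of all genes). Over the second step there 0 rose and 6 fell (13.3% and 15.1%).

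Replication-independent variants gave genotype calls in both directions at each day in the fit reported. Of 11 listed variant genes, 1 rose and 2 fell in labelled knockout at day 3 (9.51% and 14.1% of all genes), 2 rose and 4 fell at day 7 (22.1% and 19.9%), and 3 rose and 1 fell at day 15 (18.9% and 16.2%). H2AFZ rose in labelled knockout at day 7, with 204 and 231 FPKM against 140 and 137 FPKM in wild type (0.65 ± 0.14 SE, limma adjusted p = 0.00367), beside HIST2H2AA3 and HIST1H2AE, canonical H2A genes that fell there. H3F3B rose at day 15, with 742 and 810 FPKM in labelled knockout against 453 and 523 FPKM in wild type (0.67 ± 0.10 SE, limma adjusted p = 0.000823), and H3F3A was called by genotype at no day. H1F0 was lower in labelled knockout at day 7 (-0.37 ± 0.09 SE, limma adjusted p = 0.00814; lost without knockout replicate 2, at -0.33, or wild type replicate 2, at -0.36) and higher at day 15 (0.77 ± 0.09 SE, adjusted p = 0.000156). Over time it rose from day 3 to day 7 in labelled knockout (1.08 ± 0.09 SE, limma adjusted p = 1.28e-05) and in wild type (2.07 ± 0.09 SE, adjusted p = 4.23e-08). From day 7 to day 15 H1F0 fell in wild type (-1.46 ± 0.09 SE, limma adjusted p = 1.6e-06) and in labelled knockout (-0.32 ± 0.09 SE, adjusted p = 0.0252). The labelled knockout call was lost without day 7 replicate 1 (-0.28) or day 7 replicate 2 (-0.35).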

How the data were processed

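The deposited per-gene values of 12 libraries are FPKM made by the authors; reads were aligned with BWA to hg38 (GRCh38), per the submitters' processing notes. Neither the counting program and gene models nor the strand setting and the handling of reads with several placements is given in the sources used here, which leaves members that share sequence uncertain. FPKM was transformed as log2(FPKM + 1), genes that reached 1 FPKM in 2 libraries or more were kept (16295 of 17096), and 6 group means were fitted with limma 3.58.1 (R 4.3.3) with a variance trend and two-sided tests, adjusted by Benjamini-Hochberg over all genes at 0.05. A log2 change on this scale understates changes of low genes. Members and gene lists were chosen with earlier results of these data known. Full values are given for the 3 most abundant members of each class and up to 3 called members a direction and comparison with the smallest adjusted p. Annotation came from GENCODE 29 and RefSeq GRCh38.p14; all 29 members matched the first and 27 the second. Depth, estimated from low values of 863 genes with 1 transcript of at least 1500 bases, was 6800000 to 11600000 fragments, but 50.0% to 90.0% of those values lay within 0.1 of a whole fragment, so counts were not rebuilt and no counting intervals are given. Alternatives changed scaling, filter, pseudocount, trend, libraries fitted and the replicate number, and left out each library.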

Additional observations from a re-analysis of the deposited data

Results flagged for a closer look

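The genotype difference, labelled knockout minus wild type, differed between days for 8 members by limma's test of the difference itself, once for 7 of them and at both steps for HIST1H4C. All values are log2 changes of FPKM + 1 with two-sided adjusted p-values over 16295 genes. For HIST4H4 it was larger at day 15 than at day 7 by 2.85 ± 0.56 SE (adjusted p = 0.00384), with 8.90 and 8.44 FPKM in labelled knockout at day 15 against 0.317 and 0.936 FPKM in wild type, and the call held without any 1 library.

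For HIST1H4C the difference grew from day 3 to day 7 by 1.49 ± 0.44 SE (limma adjusted p = 0.0366) and shrank from day 7 to day 15 (-1.27 ± 0.44 SE, adjusted p = 0.0483). The first call was lost without any of 7 of the 8 libraries involved, with values of 1.03 to 1.61, the lowest without day 7 knockout replicate 2, and held at 1.95 without day 7 knockout replicate 1. The second was lost without day 7 knockout replicate 2 (-0.81), day 7 wild type replicate 1 (-1.17) or 2 (-1.37), day 15 knockout replicate 2 (-0.87) or day 15 wild type replicate 2 (-1.01). It was also lost with a replicate block (adjusted p = 0.0568), after median-ratio scaling (0.0529), at a pseudocount of 0.1 (0.0525), with no variance trend (0.0625) and with the compared groups fitted alone (0.0808). Those 2 libraries of day 7 labelled knockout had 90.6 and 172 FPKM.

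For HIST1H4H the difference grew from day 3 to day 7 by 1.10 ± 0.34 SE (limma adjusted p = 0.0459), lost without any library but day 7 knockout replicate 1, with values of 0.75 to 1.20, and lost with a replicate block (adjusted p = 0.0568) and after median-ratio scaling (0.0564). For HIST1H1C it grew by 1.06 ± 0.33 SE (limma adjusted p = 0.0459), lost without day 3 knockout replicate 1 (0.76), day 3 wild type replicate 1 (1.12) or 2 (1.00), day 7 knockout replicate 1 (1.13) or 2 (0.98), or day 7 wild type replicate 2 (0.82). That call was also lost after median-ratio scaling (adjusted p = 0.0711), with no variance trend (0.0511) and with the compared groups fitted alone (0.0506). For HIST2H2BE it went downward (-0.97 ± 0.26 SE, limma adjusted p = 0.0262), lost without 6 of 8 libraries, with values of -1.04 to -0.79, and at a pseudocount of 0.1 (adjusted p = 0.0518), and held without day 3 knockout replicate 1 or day 7 knockout replicate 2. For HIST2H2AA3 it also went downward (-1.37 ± 0.39 SE, limma adjusted p = 0.0333), lost without 6 of 8 libraries, with values of -1.48 to -1.12, and held without day 7 knockout replicate 2 or day 7 wild type replicate 1.

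From day 7 to day 15 the difference went downward for HIST1H2AC (-0.99 ± 0.25 SE, limma adjusted p = 0.0138; lost without day 7 wild type replicate 1, at -0.86). It also went downward for HIST1H2BG (-0.77 ± 0.24 SE, limma adjusted p = 0.0312), an H2B gene with 1.17 and 1.73 FPKM in labelled knockout at day 7, against 0.766 and 0.779 FPKM in wild type, and 0.950 and 0.891 FPKM at day 15, against 1.39 and 1.40 FPKM. That call was lost without 6 of 8 libraries, with values of -0.78 to -0.61, the smallest change without day 7 knockout replicate 2, and held without day 7 knockout replicate 1 or day 15 knockout replicate 1, and it was lost with the compared groups fitted alone (adjusted p = 0.0617).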

How the results depend on the processing

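Counts of members called stayed within 1.5 times of those reported in 68 of 72 recounts under other settings. The exceptions were 4 members in labelled knockout from day 3 to day 7 with genes of at least 5 FPKM only, where fewer members are tested, 4 in labelled knockout from day 7 to day 15 and 2 for the change of the genotype difference over that step with the compared groups fitted alone, and 3 for the change of the genotype difference from day 3 to day 7 after median-ratio scaling. The cause was not tested for the last 3. Without 1 library at a time the counts ran from 2 to 3 for genotype at day 3, 3 to 5 at day 7 and 4 to 9 at day 15, from 3 to 8 and 3 to 7 for the steps of labelled knockout, 7 to 8 and 3 to 6 for those of wild type, and 0 to 2 and 2 to 6 for the changes of the genotype difference. No named change reversed; of 54 called pairs of member and comparison, 25 kept the call without any 1 library. With no filter HIST1H4I and HIST1H2BG, named after their values were seen, were also called, at day 7 among others (0.54 and 0.46, limma adjusted p = 0.0143 and 0.0415). Same-numbered replicates did not deviate together (correlations of 0.04, 0.02 and -0.12 at days 3, 7 and 15 over 16295 genes). With a replicate block the counts were 3, 5 and 6 for genotype at days 3, 7 and 15, 9 and 9 for the steps of labelled knockout, 9 and 6 for wild type, and 4 and 4 for the changes of the genotype difference, where the block ended the calls of HIST1H4H at the first step and HIST1H4C at the second (adjusted p = 0.0568 for both) and added HIST2H2AA3 at the second (1.13, adjusted p = 0.0329). Depth limits members that rest on few fragments, which depends on length as well as FPKM. At full annotated length HIST2H2AC, at 1.43 to 7.47 FPKM, rests on 3.80 to 27.6 fragments.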
